A study of Mus musculus with 75 samples.

Results

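The genes described here are 60 genes for proteins of the cytosolic ribosome, 30 of the small (40S) subunit (Rps2 to Rps29) and 30 of the large (60S) subunit (Rpl3 to Rpl38). They were taken as a fixed list of gene identifiers, with no use of measured values, from the 53465 identifiers in each of the study's count tables. Other ribosomal protein genes are not analysed here. RNA came from mouse CD4 effector T cells (CD4 Teff, sorted as CD4+CD25-) of spleen and lymph nodes, cultured in vitro, and the study asked how regulatory T cells (Tregs) act on translation during activation.

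In the assay called RiboTag, 5 mice carried the alleles B6N.129-Rpl22tm1.1Psam/J, by which Cre switches on a hemagglutinin tag on the ribosomal protein Rpl22, together with the transgene B6.Cg-Tg(Cd4-cre)1Cwi/BfluJ, which drives Cre from the Cd4 promoter. All RiboTag groups share these alleles. Cells of each mouse were rested in IL7 (Rest), stimulated with beads coated with antibodies to CD3 and CD28 (Stim), or stimulated by such beads beside Tregs (Treg). Each culture gave a library of total RNA (Input) and one of RNA precipitated with the tag (IP), which makes 30 libraries at 5 per group. In the assay called SPEED, cells of 4 mice labelled B6.SJL-PtprcaPepcb/BoyJ were left untreated (Unstim), stimulated with beads (Stim), given beads and Tregs (Treg), or given beads and HHT for 10 min (HHT). Sucrose fractionation gave Input, polysomal (Pol) and subpolysomal (SubPol) RNA. There were 45 SPEED libraries, of which 44 were fitted: 4 per group, but 2 for HHT Input and 3 each for HHT Pol and HHT SubPol. The sources used here do not give the meaning of HHT and SPEED, the mice's age, the Treg numbers, the culture times, or whether Tregs were taken out before lysis. The tag marks ribosomes only of cells with the Cd4-driven Cre, while Input RNA comes from every cell in the lysate. These were bulk samples, so fewer cells of a type and less RNA per cell cannot be told apart. Defining T cell markers and genes of other pathways could not be matched to the gene identifiers and are not analysed here.

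As background, the small subunit reads the mRNA and the large subunit joins the amino acids, and each ribosome needs a copy of nearly every one of these proteins. Their mRNAs usually begin with a terminal oligopyrimidine (TOP) motif, a C followed by a run of pyrimidines at the 5′ end, through which growth signals by way of mTOR control how many of them are loaded with ribosomes. In resting lymphocytes many such mRNAs sit outside polysomes, and T cell activation raises ribosome production. mRNAs under active translation carry several ribosomes and sediment as polysomes, and the others lie in the subpolysomal fractions.

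To show that motif, the first bases of transcripts were read from RefSeq for GRCm38.p6, whose promoter table held 43 of the 60 genes. Each window has 10 bases before the annotated start and 20 from the start on, on the gene's own strand. Capitals mark a run of C and T of at least 5 letters that opens with C and begins within 5 bases of the start. Only that strand was searched, and the letters are a description of the annotated start, which may not be the start used in these T cells. The first 4 genes have such a run. Rps6, Rps27 and Rpl12 are shown because they stand at the end of a list of changes below, and Rpl15 because its run of 17 letters is the longest.
Rps6 (chr4:86857348-86857377, minus strand): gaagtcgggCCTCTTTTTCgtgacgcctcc
Rps27 (chr3:90213629-90213658, minus strand): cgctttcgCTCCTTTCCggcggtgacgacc
Rpl12 (chr2:32961702-32961731, plus strand): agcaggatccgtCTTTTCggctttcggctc
Rpl15 (chr14:18270967-18270996, minus strand): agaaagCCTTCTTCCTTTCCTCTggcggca
The other 7 have no such run at the annotated start. They are shown because they stand at the end of such a list or, for Rpl22, because the protein is the tagged one.
Rpl11 (chr4:136053374-136053403, minus strand): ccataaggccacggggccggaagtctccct
Rpl5 (chr5:107900518-107900547, plus strand): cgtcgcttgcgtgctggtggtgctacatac
Rpl27 (chr11:101442235-101442264, plus strand): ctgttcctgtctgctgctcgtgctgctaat
Rps12 (chr10:23787190-23787219, minus strand): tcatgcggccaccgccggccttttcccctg
Rps13 (chr7:116334171-116334200, minus strand): caaacgtcggtgagtggcgtcacttcctgt
Rpl10a (chr17:28328461-28328490, plus strand): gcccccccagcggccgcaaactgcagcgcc
Rpl22 (chr4:152324426-152324455, plus strand): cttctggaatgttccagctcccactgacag

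Such a run was present in 20 of 43 members (46.5%), 11 of 22 of the small and 9 of 21 of the large subunit, against 5718 of 27025 genes in the whole table (21.2%). With the run allowed to begin within 2 bases, the shares were 34.9% and 10.6%, and within 20 bases they were 83.7% and 53.3%. Members with and without the run had close medians in most comparisons. For Stim minus Rest in RiboTag Input the median log2 fold change was 0.26 in the 20 with it and 0.21 in the 22 tested without it. For Pol over SubPol in untreated cells it was -1.04 in the 20 with it and -1.09 in the 23 without it. No test was made between these sets.

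Depth has to be read beside every value below. Gene counts per library were 1658481 to 2824875 in RiboTag and 1566501 to 4621104 in SPEED, and the 60 genes held 0.331% to 0.587% of them in RiboTag and 0.276% to 0.679% in SPEED. Within groups, member counts did not rise in step with the library total. The slope of log2 count on log2 total had a median of 0.39 over 50 members in RiboTag and 0.71 over 57 in SPEED, where counts that scale with depth would give 1. It was 1.1 in both assays over all genes with a mean of at least 20 counts (9273 and 9758 genes), and 0.77 and 0.79 over genes with at least 1000 (184 and 410 genes). Rpl4 (ENSMUSG00000032399), a protein lining the exit tunnel, shows this most plainly, with 1212 to 1601 counts in the 30 RiboTag libraries. Levels below are in CPM, a gene's count over the library's total across the genes tested after TMM scaling, so they differ slightly from counts over the raw total. CPM of these genes were mostly lower in deeper libraries. Over 12 pairs of Input libraries of 1 mouse in which the first was deeper, the members' median log2 difference was below 0 in 11. Over the 8 pairs in which it was shallower, that median was above 0 in 7. Over all pairs, with IP pairs between cultures and pairs of fractions included, it was below 0 in 34 of 39 deeper pairs. It was above 0 in 14 of 21 shallower ones. Pol libraries were mostly deeper than SubPol libraries, so in those pairs depth and fraction cannot be told apart. The pairs reuse libraries, so they are not independent. In SPEED, each Stim Input library was also shallower than every other Input library of its mouse, so depth went with the culture. A small shift shared by all members thus cannot be told apart from a difference in depth, and the ratios of library totals are given with the comparisons.

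**Figure D1:**
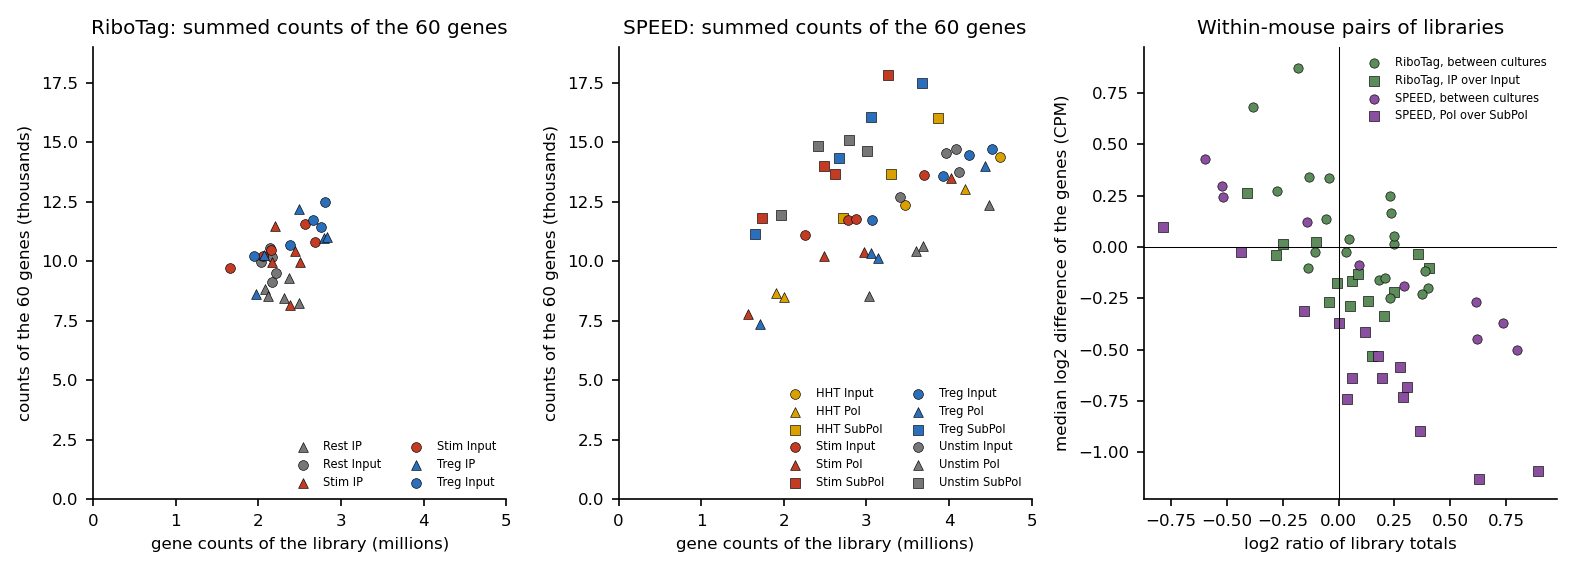
Left and middle panels plot the summed counts of the 60 genes against all gene counts of the library, in units given on the axes, one point per library, by culture (colour) and fraction (shape), in RiboTag and SPEED. The right panel plots, for each pair of libraries of 1 mouse, the members' median log2 difference in CPM against the log2 ratio of the library totals, and most points lie below 0 where the first library was deeper.

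Of the members, 58 passed the filter on low counts in RiboTag and 60 in SPEED. Rpl23a and Rpl24, the 2 left out in RiboTag, had low counts in every group. Member means ran from 0.910 to 624 CPM in RiboTag (median 37.3) and from 1.1 to 552 CPM in SPEED (median 34.7). CPM is not corrected for gene length, so these means give no order of expression between genes. Many ribosomal protein genes have near-identical processed pseudogenes, and how reads that map to several copies were counted is not given in the sources used here. Each level is therefore uncertain, and the part of this in the results was not tested.

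Stimulated cells had many-fold more of a subset of these mRNAs, while most members did not pass the test. In RiboTag Input, 18 of the 58 members were higher in Stim than in Rest and 1 was lower (edgeR quasi-likelihood test, Benjamini-Hochberg adjusted p under 0.05), against 32% of all 10751 genes tested that were higher and 31.4% that were lower. The count of higher members was thus near the background. Higher calls fell on 7 small-subunit and 11 large-subunit genes, and 12 members were over 2-fold higher. The share of all genes over 2-fold higher is not given here. The median log2 fold change was 0.18 over the members and -0.01 over all genes.

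Rps6 (ENSMUSG00000028495), the small-subunit protein that S6 kinases phosphorylate after growth signals, rose most. Its Rest Input values were 2.32, 1.38, 0.952, 2.39 and 4.11 CPM in mice 1 to 5, and its Stim Input values were 12.1, 13.4, 18.4, 18.9 and 15.4 CPM. The groups did not overlap, and the lowest stimulated library was well above the highest rested one. The log2 fold change was 2.80 ± 0.31 (SE, n = 5 mice, edgeR adjusted p = 3.65e-09), or 6.96-fold.

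Rpl27 (ENSMUSG00000063316), a large-subunit protein, went from 7.89, 6.91, 5.24, 5.73 and 6.68 CPM in Rest Input to 42.5, 33.3, 41.6, 36.6 and 25.2 CPM in Stim Input. Every stimulated library exceeded every rested one, and the log2 fold change was 2.45 ± 0.21 (SE, n = 5, edgeR adjusted p = 1.03e-11). Rps29 (ENSMUSG00000034892), a small zinc-binding protein of the 40S subunit, had 1.39, 1.38, 1.43, 3.34 and 0 CPM in Rest Input and 9.71, 7.39, 6.77, 9.23 and 8.41 CPM in Stim Input, again without overlap. Its log2 fold change was 2.41 ± 0.41 (SE, n = 5, edgeR adjusted p = 5.82e-06). Rpl11 and Rpl5, which bind 5S rRNA and, when free of the ribosome, restrain the p53 regulator Mdm2, rose by 2.29 and 2.27 on the log2 scale. Rps27a, made as a fusion with ubiquitin, rose by 2.23, and Rpl15 rose by 1.62, from 28.1 ± 7.19 to 86.5 ± 9.26 CPM (SD, n = 5).

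Rps21 at -0.24 and Rpl8 at -0.21 were among the lowest members and did not pass the test. Rpl22 (ENSMUSG00000028936), the tagged protein, had 77.7 ± 9.19 CPM in Rest Input and 97.1 ± 13.8 CPM in Stim Input (SD, n = 5), a log2 difference of 0.32 that did not pass (edgeR adjusted p = 0.0564). In these Input libraries, 16 of 58 members had every stimulated value above every rested value, as did 24.3% of all genes tested.

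Members with fewer counts showed more of the difference. Among the 29 tested members with the lower mean CPM, 14 were higher in Stim and the median log2 fold change was 0.47, and among the 29 with the higher mean CPM, 4 were higher and the median was -0.02. Over all genes tested, at any level, 32% were higher. Shares at matched levels are not given here, so whether this is particular to the members was not tested. The members' median by mouse was 0.68, 0.33, 0.14, 0.06 and -0.20 for mice 1 to 5, while the log2 ratio of the Stim to the Rest library total was -0.38, -0.04, -0.06, 0.25 and 0.40. So the list's median followed depth across the mice, while Rps6, Rpl27 and Rps29 were higher in all 5. With the log2 library total as a covariate, 21 members were higher and 2 lower, with a median of 0.20. For fits with this covariate, the share of all genes called is given neither here nor below.

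**Figure D2:**
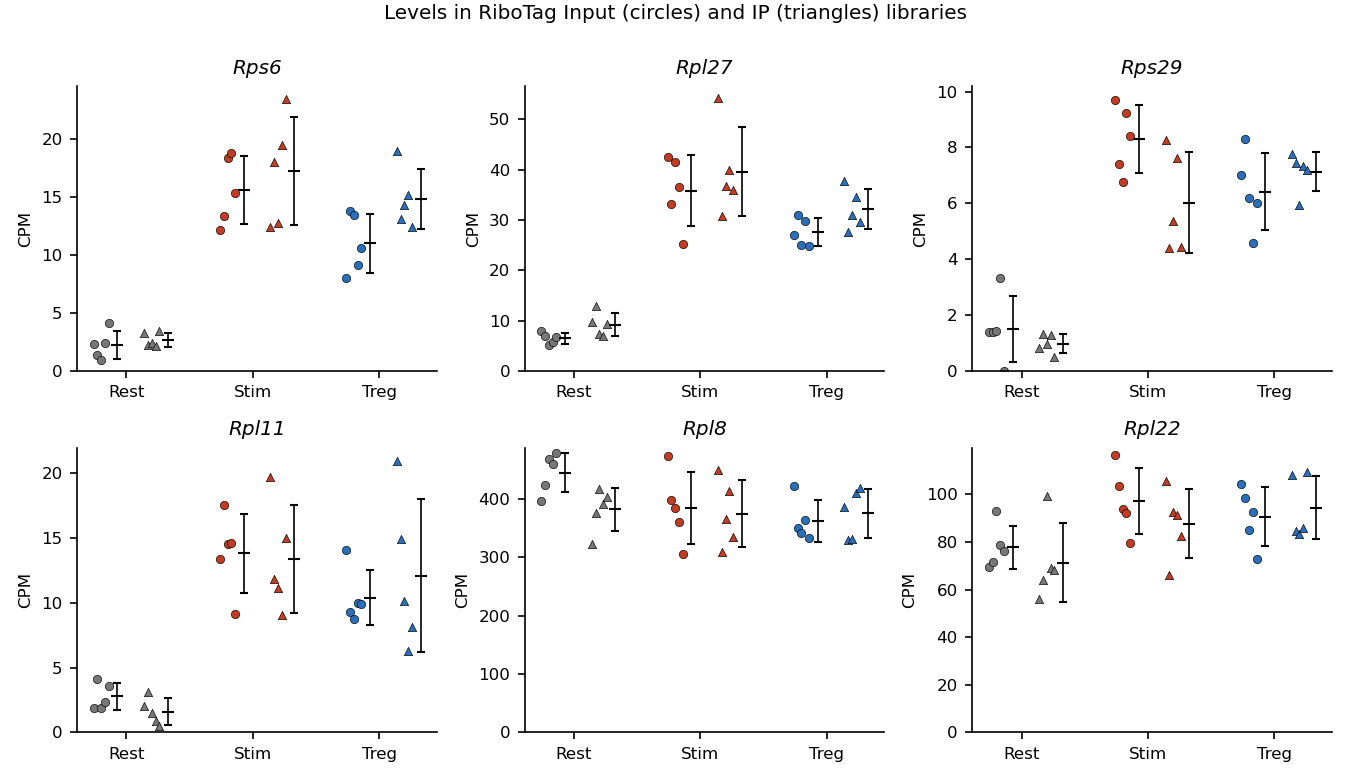
CPM of 6 members in RiboTag Input (circles) and IP (triangles) libraries of Rest, Stim and Treg cultures, one point per mouse, with bars for the mean and SD (n = 5). Rps6 had 0.952 to 4.11 CPM in rested and 12.1 to 18.9 CPM in stimulated Input, while Rpl8 had 396 to 478 and 306 to 474.

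RNA bound to tagged ribosomes showed some of the same members higher, Rpl11, Rps6 and Rps29 first. In RiboTag IP, 26 of 58 members were higher in Stim than in Rest and 0 were lower (edgeR adjusted p under 0.05), against 33.6% of all genes tested that were higher. The median was 0.32, and 11 small-subunit and 15 large-subunit genes were called. Rpl11 (ENSMUSG00000059291) had 2.02, 3.10, 1.46, 0.862 and 0.490 CPM in Rest IP and 19.7, 11.9, 11.2, 9.05 and 15 CPM in Stim IP. The groups stood far apart, with a log2 fold change of 3.01 ± 0.40 (SE, n = 5, edgeR adjusted p = 7.02e-08). Rps6 rose by 2.66 (adjusted p = 4.27e-09) and Rps29 by 2.54 (adjusted p = 6.96e-06), each in all 5 mice. At the other end, Rps19 at -0.15 and Rps9 at -0.06 did not pass, and neither did Rpl22 at 0.30 (adjusted p = 0.0684). Mouse 1 weighed on the count: without it, 15 members were higher and 2 lower. The median by mouse was 0.87, 0.04, 0.17, 0.34 and 0.01, with log2 ratios of the Stim to the Rest total of -0.18, 0.05, 0.23, -0.13 and 0.25. The count was 14 in mice 3 to 5 alone and 17 without the filter on low counts.

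In the mice of the other assay too, more members were higher than lower. In SPEED Input, 14 of 60 members were higher in Stim than in Unstim and 1 was lower, against 27.9% of 12428 genes tested that were higher and 26.5% that were lower. The median was 0.27, and the stimulated libraries were shallower than the untreated ones in all 4 mice. With the log2 library total as a covariate, 12 members were higher and 5 lower, with a median of 0.08, and without the filter on low counts 8 members were called.

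Rpl5 (ENSMUSG00000058558) went from 4.05, 3.87, 4.23 and 4.65 CPM to 11.9, 11.7, 14.9 and 9.39 CPM, a rise of 1.5 ± 0.28 (SE, n = 4, adjusted p = 2.44e-05) with no overlap. Rps6 had 6.33, 5.32, 9.07 and 3.67 CPM in Unstim and 14.4, 14.6, 16.7 and 18.1 CPM in Stim, a rise of 1.39. Rpl23a, near the exit of the peptide tunnel, rose by 1.89 from a mean of 0.848 CPM (adjusted p = 0.0078), and the adjusted p was 0.134 without mouse 1.

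Rpl24 at -0.38 and Rps27 at -0.26 were among the lowest and did not pass the test. The member called lower was Rpl22, whose Unstim Input values were 151, 172, 132 and 123 CPM and Stim Input values 121, 107, 134 and 124 CPM. The groups overlapped and 2 of 4 mice showed the direction. Its log2 fold change was -0.25 ± 0.10 (SE, n = 4, edgeR adjusted p = 0.0345), which was 0.151 without mouse 1 and 0.559 without mouse 2.

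Some higher calls were shared between the assays. Of the 18 in RiboTag Input and the 14 in SPEED Input, 11 were shared, or 61.1% and 78.6% of each list. Over all genes, the higher calls of the same comparisons shared 71.8% and 71.1%, so the members' shares lay on both sides of the background. RiboTag Input and IP, taken from the same cultures, shared 17 (94.4% of the Input and 65.4% of the IP list, against 90.7% and 86.2% over all genes). In all 3 comparisons 11 were called higher, among them Rps6, Rps23, Rps25, Rps27a and Rps29 of the small and Rpl3, Rpl5, Rpl15, Rpl27 and Rpl29 of the large subunit. The share of all genes called higher in all 3 is not given here, so whether this count is particular to the members was not tested. The median log2 fold change of the 11 was 1.70 in RiboTag Input, 2.09 in RiboTag IP and 1.02 in SPEED Input. These 11 were picked by their higher calls in the same comparisons, so their medians had to be above 0. Over all members tested the medians were 0.18, 0.32 and 0.27.

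**Figure D3:**
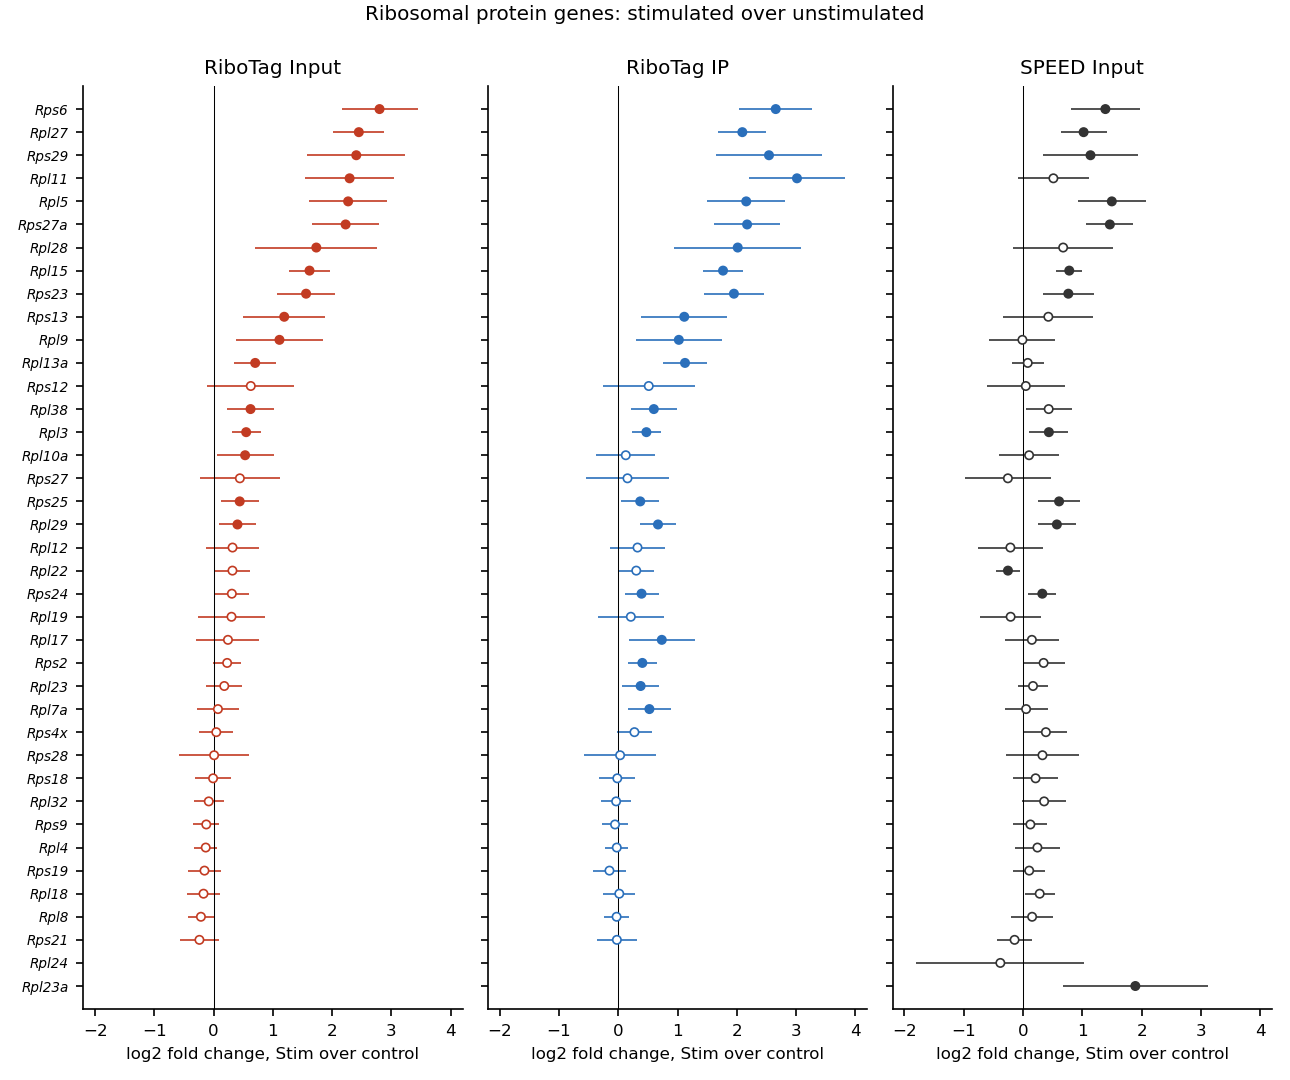
Log2 fold change of the members named in the text in stimulated over control cultures in RiboTag Input, RiboTag IP and SPEED Input, with 95% intervals, ordered by the first panel, filled where the edgeR adjusted p was under 0.05. Rpl24 and Rpl23a were tested in SPEED alone. Rps6, Rpl27, Rps29, Rpl5 and Rps27a stand to the right of 0 in each panel, and others lie near 0.

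No member passed the test for Tregs. In RiboTag Input, Treg minus Stim gave 0 of 58 calls (edgeR adjusted p under 0.05, 1 at unadjusted p under 0.05, DESeq2 0), against 4.53% of all genes tested in either direction. The members' median was -0.13, and 53 of 58 point values were below 0. The lowest were Rpl5 at -0.53 (adjusted p = 0.326), Rps27 at -0.52 and Rps6 at -0.50, and among the highest were Rpl18 at 0.06 and Rps28 at 0.03. Rps6 had 8.03, 13.8, 13.5, 9.14 and 10.6 CPM in Treg Input, which overlaps its stimulated values. Rpl22 differed by -0.10 (adjusted p = 0.783). The Treg library was the deeper in mice 1, 2, 3 and 5, and with the library total as a covariate the median was -0.01.

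In RiboTag IP, Treg minus Stim also gave 0 of 58 (edgeR, 0 at unadjusted p under 0.05, DESeq2 0), against 5.69% of all genes. The median was -0.01, and by mouse -0.16, 0.25, -0.15, -0.10 and 0.27, with log2 ratios of the Treg to the Stim total of 0.18, 0.23, 0.21, -0.14 and -0.27. Values ran from Rpl5 at -0.39, Rpl9 at -0.38 and Rpl27 at -0.30 to Rps21 at 0.15, Rps18 at 0.23 and Rps29 at 0.25, and Rpl22 was at 0.11. The median half-width of the members' 95% intervals was 0.32, so smaller differences than that were mostly not detectable at this depth.

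In SPEED Input, Treg minus Stim gave 0 of 60 (edgeR, 8 at unadjusted p under 0.05, DESeq2 0), against 0.587% of all genes. The median was -0.29 with 54 of 60 below 0. The lowest were Rps28 at -0.55, Rpl23a at -0.54 and Rps6 at -0.51 (11.1 ± 2.18 against 16 ± 1.77 CPM, SD, n = 4, adjusted p = 0.399), and the highest were Rpl19 at 0.33, Rpl24 at 0.23 and Rpl28 at 0.15. Rpl22 was at -0.11. Medians by mouse were -0.27, -0.19, -0.50 and -0.09, with the Treg library deeper by 0.61, 0.29, 0.80 and 0.09 on the log2 scale, and with the library total as a covariate the median was -0.09. The Treg difference itself was compared between the assays: 0 of 58 members passed (edgeR, 0 at unadjusted p under 0.05), against 0.461% of 10846 genes.

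The members called between RNA precipitated with the tag and Input RNA were lower in IP, in rested cells. For IP over Input in Rest, 4 of 58 members were lower and 0 higher (edgeR adjusted p under 0.05), against 3.54% of all genes that were lower. The median was -0.31, with 53 of 58 below 0, and the IP library was the deeper in 4 of 5 mice. Rpl13a (ENSMUSG00000074129), a large-subunit protein that phosphorylation can release to silence inflammatory mRNAs, had 24.1, 37.3, 35.7, 33.4 and 39.1 CPM in Rest Input and 17.4, 19.1, 21.4, 23.7 and 20.6 CPM in Rest IP. Every IP value was below every Input value, with a log2 difference of -0.73 ± 0.18 (SE, n = 5, edgeR adjusted p = 0.0117), which was 0.0778 without mouse 2, 0.0835 without mouse 3 and 0.0709 without mouse 5. Rps2 was also called, at -0.38 (adjusted p = 0.0485), and was lower in all 5 mice. Rpl17 at -0.84 (0.0591) and Rpl11 at -0.77 had the lowest values of all and did not pass, and Rpl27 at 0.50, Rps6 at 0.28 and Rpl19 at 0.16 were highest. The count was 1 without mouse 2 or mouse 4 and 0 without mouse 3 or mouse 5. IP and Input share a culture, and with the culture as a random block (limma) 12 members were lower and 1922 genes in all were called. Without the filter on low counts 2 members were called.

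In stimulated cells, IP over Input gave 0 calls (edgeR, 3 at unadjusted p under 0.05, DESeq2 2, and 1 with the mouse as a block), against 0.977% of all genes, with a median of -0.14. With the culture as a random block 2 were called. The median by mouse was -0.10, -0.53, -0.22, 0.01 and 0.02, with log2 ratios of the IP to the Input total of 0.40, 0.15, 0.25, -0.25 and -0.10. Rpl10a at -0.82 (adjusted p = 0.0875), Rps12 at -0.69 and Rpl12 at -0.62 were lowest, and Rps6 at 0.14, Rpl18 at 0.14 and Rpl27 at 0.15 highest. With Tregs it gave 0 calls as well (edgeR, 3 at unadjusted p under 0.05, DESeq2 0), against 1.85%, with a median of -0.01. By mouse it was -0.03, -0.17, -0.13, -0.04 and 0.26, with log2 ratios of the totals of 0.36, -0.01, 0.09, -0.28 and -0.41. There Rpl10a at -0.57, Rpl12 at -0.50 and Rpl17 at -0.37 were lowest, and Rpl11 at 0.24, Rps27a at 0.36 and Rps6 at 0.42 highest. Rpl22 itself, whose protein is precipitated, had IP over Input at -0.13 in Rest, -0.14 in Stim and 0.06 in Treg.

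The change of that ratio on stimulation passed for 0 members (edgeR, 1 at unadjusted p under 0.05, DESeq2 0), against 0.0279% of all genes, with a median of 0.14 and a range from Rpl10a at -0.41, Rpl27 at -0.36 and Rps27 at -0.29 to Rpl7a at 0.45, Rpl17 at 0.49 and Rpl11 at 0.72. Rpl22 was at -0.02. With Tregs against Stim it passed for 0 members (edgeR, 0 at unadjusted p under 0.05, DESeq2 0), against 0% of all genes, with a median of 0.12, from Rpl9 at -0.31, Rpl18 at -0.14 and Rpl28 at -0.09 to Rps12 at 0.44, Rps27 at 0.47 and Rps29 at 0.61. Rpl22 was at 0.20.

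In untreated cells, ribosomal protein mRNAs made up a smaller share of polysomal than of subpolysomal RNA. CPM are relative to the total of each library, so the part of an mRNA on polysomes was not measured. For Pol over SubPol in Unstim, 54 of 60 members were lower in Pol and 0 higher (edgeR adjusted p under 0.05), 29 small-subunit and 25 large-subunit genes, against 17.8% of all genes that were lower. The median was -1.01 against 0.04 over all genes. Of the members, 30 were over 2-fold lower, and the share of all genes over 2-fold lower is not given here. In 53 of 60 members every Pol value was below every SubPol value, as in 14.8% of all genes tested. All 60 point values were below 0. The Pol library was the deeper in each mouse, by 0.29, 0.37, 0.89 and 0.63 on the log2 scale, and the median by mouse was -0.73, -0.90, -1.09 and -1.13. When Pol was compared with Input, 13 members were lower. For Pol over Input, the share of all genes called is given neither here nor below.

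Rps12 (ENSMUSG00000061983), a small-subunit protein, had 3.22, 2.35, 2.54 and 2.20 CPM in Unstim Pol and 9.48, 13.5, 12.9 and 10.1 CPM in Unstim SubPol. The ranges stood apart, at -2.14 ± 0.35 on the log2 scale (SE, n = 4, edgeR adjusted p = 4.53e-06). Rpl12 (ENSMUSG00000038900), at the base of the stalk where translation factors bind, had 11.7, 8.51, 6.47 and 2.20 CPM in Pol and 29.7, 33.6, 32.3 and 28.7 CPM in SubPol, a log2 difference of -2.09 ± 0.28 (SE, n = 4, adjusted p = 1.70e-07). Rps13 followed at -2.03 (adjusted p = 8.34e-05). Rpl22 was at 99.8 ± 6.54 CPM in Pol and 200 ± 17.9 CPM in SubPol (SD, n = 4), a log2 difference of -1.0 ± 0.10 (SE, adjusted p = 6.62e-10).

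Members that did not pass were Rpl5 at -0.12, Rpl27 at -0.14, Rps27a at -0.24, Rpl23a, Rpl24 and Rpl28. Rpl27 had 14.3, 17.3, 15.7 and 12.1 CPM in Unstim Pol and 17.6, 16.3, 20.6 and 10.6 CPM in Unstim SubPol, with full overlap. Rpl5, Rpl27 and Rps27a, the 3 members nearest 0 here, were also among the 11 that rose with stimulation in Input and IP.

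In stimulated cells, 34 of 60 members were lower in Pol than in SubPol and 0 higher (edgeR adjusted p under 0.05), against 21.8% of all genes that were lower, with a median of -0.53. When Pol was compared with Input the count fell to 2, with a median of -0.08, and without the filter on low counts it was 21. Rps27 (ENSMUSG00000090733), a zinc-finger protein of the small subunit, had 2.15, 1.71, 4.19 and 1.46 CPM in Stim Pol and 9.28, 10.6, 16.8 and 14.5 CPM in Stim SubPol. The highest Pol value was below the lowest SubPol value, at -2.32 ± 0.38 on the log2 scale (SE, n = 4, edgeR adjusted p = 3.72e-06). Rps12 at -1.85 (adjusted p = 1.93e-05) and Rpl10a, the protein of the stalk near the exit site, at -1.70 (9.93e-07) came next, and Rpl22 was at -1.04 (1.76e-10). Rpl27 at 0.32 (0.173), Rpl5 at 0.14 and Rpl28 at 0.11 were highest and did not pass. Mouse 2 had nearly equal totals, 2490596 in Pol and 2489938 in SubPol, and there 55 of 60 members were lower in Pol, with a median of -0.37. The share of all genes lower in Pol in that mouse is not given here. What part depth had in the ratio cannot be read from a single pair of libraries.

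With Tregs, 45 of 60 members were lower in Pol and 0 higher, against 21.6% of all genes that were lower, with a median of -0.69. When Pol was compared with Input the count was 4, and without the filter on low counts 29. Rps27 at -2.41 (edgeR adjusted p = 2.53e-06), Rpl10a at -2.02 (5.22e-08) and Rps12 at -1.97 (7.53e-06) were again lowest. Rpl27 at 0.40 (0.0845), Rpl28 at 0.34 and Rpl5 at 0.09 were highest, and Rpl22 was at -1.08 (8.58e-11). The totals were close in mice 2 and 4, where the median was -0.74 and -0.64, each from a single pair of libraries.

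**Figure D4:**
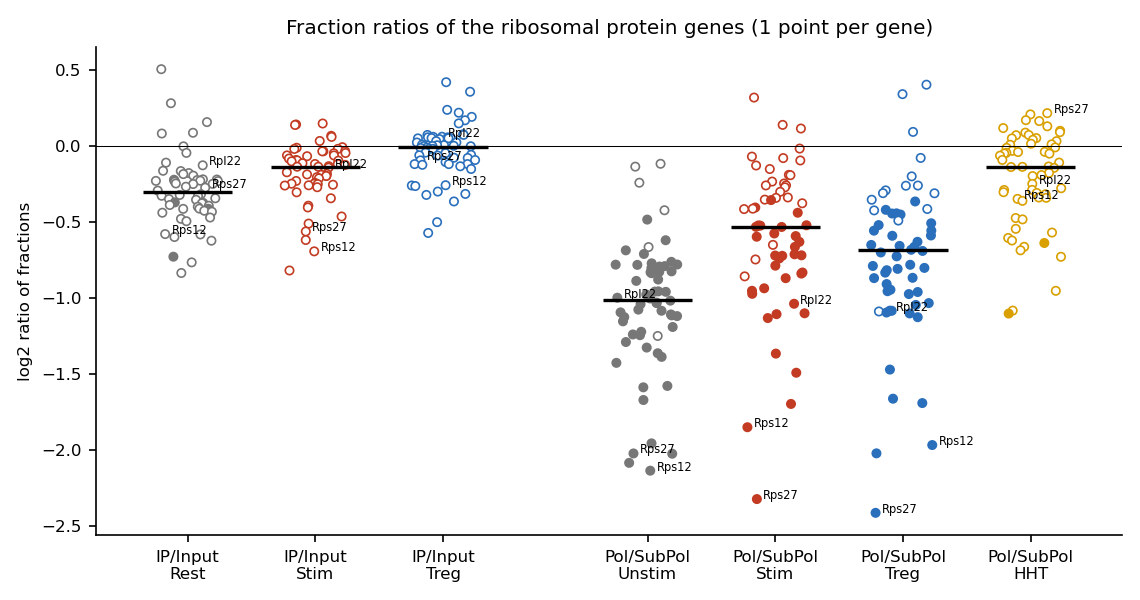
Log2 ratio of IP over Input in the 3 RiboTag cultures and of Pol over SubPol in the 4 SPEED conditions, one point per member, filled where the edgeR adjusted p was under 0.05, with a line at the median. The median of Pol over SubPol lies at -1.01 in Unstim, -0.53 in Stim, -0.69 in Treg and -0.14 in HHT.

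The difference of the ratios between Stim and Unstim passed for 0 of 60 members (edgeR, lowest adjusted p = 0.054, 25 at unadjusted p under 0.05, DESeq2 5), against 2.60% of all genes. With the mouse as a block, 4 passed. The median difference was 0.47, with 54 of 60 above 0. Rps13 at 1.37 (adjusted p = 0.168) and Rps4x at 0.78 (0.0834) were among the highest, Rps6 at -0.31, Rps27 at -0.30 and Rpl10a at -0.11 lowest, and Rpl22 was at -0.04 (0.938). The untreated Pol libraries exceeded their SubPol libraries in depth by more than the stimulated ones did in mice 1 to 4 alike, and the part of this in the difference was not tested beyond the fit with the library total, in which 8 passed.

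Tregs changed the ratio against Stim for 0 members (edgeR, 0 at unadjusted p under 0.05, DESeq2 0), against 0% of all genes, with a median of -0.16. Rpl24 at -0.80, Rps13 at -0.45 and Rpl11 at -0.43 were lowest, Rps23 at 0.21, Rpl28 at 0.23 and Rpl18 at 0.23 highest, and Rpl22 was at -0.05. The median half-width of the 95% intervals was 0.53 for these differences of ratios.

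After HHT the count of members that differed between the fractions depended on how depth was treated. For Pol over SubPol in HHT, 2 of 60 members were lower and 0 higher (edgeR adjusted p under 0.05), against 2.24% of all genes that were lower, with a median of -0.14. With the library total as a covariate the count was 9, with the mouse as a block beside it 15, and with Pol over Input or without the filter on low counts 0. Those called were Rpl13a at -0.64 (adjusted p = 0.00964) and Rpl9 at -1.10 (0.0311). Rpl9 had an adjusted p of 0.231 without mouse 2, 0.45 without mouse 3 and 0.0545 without mouse 4, and the count was 1 without mouse 1 or mouse 2 and 0 without mouse 3. Rpl23a at -1.08 and Rpl12 at -0.95 (0.0671) did not pass, Rps27 at 0.22 and Rpl4 at 0.21 were highest, and Rpl22 was at -0.25 (0.227). By mouse the median was -0.03, 0.10 and -0.41. The Pol library was shallower than the SubPol library in mice 1 and 2 (log2 ratio of totals -0.43 and -0.79) and slightly deeper in mouse 3 (0.12), where 59 of 60 members were below 0. The share of all genes below 0 in mouse 3 is not given here.

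The ratio differed between HHT and Stim in 9 of 60 members, all higher after HHT (edgeR adjusted p under 0.05), against 10.3% of all genes that were higher. With Pol over Input in its place the count was 0, and without the filter on low counts it was 2. The median was 0.35 against 0.06 over all genes. Rps27 had 3.35, 4.44 and 5.38 CPM in HHT SubPol and 5.30, 4.50 and 5.53 CPM in HHT Pol, so the ranges of the fractions overlapped. Its difference was 2.54 ± 0.57 on the log2 scale (SE, edgeR adjusted p = 0.00109), and measured as Pol over Input the adjusted p was 0.626. In mouse 3, where the HHT totals were close, Rps27 was at 5.38 in SubPol and 5.53 in Pol after HHT, against 16.8 and 4.19 CPM in Stim.

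Rps12 had 7.81, 10.7 and 12.2 CPM in HHT SubPol and 4.77, 10.1 and 9.14 CPM in HHT Pol, and its difference from Stim was 1.5 ± 0.50 (SE, adjusted p = 0.0263). It did not pass without mouse 2 (0.16), mouse 3 (0.189) or mouse 4 (0.074). Rpl10a differed by 1.09 (adjusted p = 0.0374), and Rps19, Rps21, Rpl18, Rps24 and Rpl23 by 0.50 to 0.68. Rpl22 fell in SubPol from 170, 198, 199 and 224 CPM in Stim to 130, 115 and 130 CPM in HHT, while Pol went from 87.4, 94.3, 99.8 and 103 CPM to 110, 105 and 101 CPM. The SubPol groups did not overlap, and the difference of the ratios was 0.79 ± 0.16 (SE, edgeR adjusted p = 0.000327). Rps29 at 1.2 (0.142) did not pass, nor did the lowest members, Rpl28 at -0.80 (0.4), Rpl27 at -0.36 and Rpl23a at -0.34. The count of members called was 3 without mouse 1, 2 without mouse 2, 4 without mouse 3 and 7 without mouse 4.

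**Figure D5:**
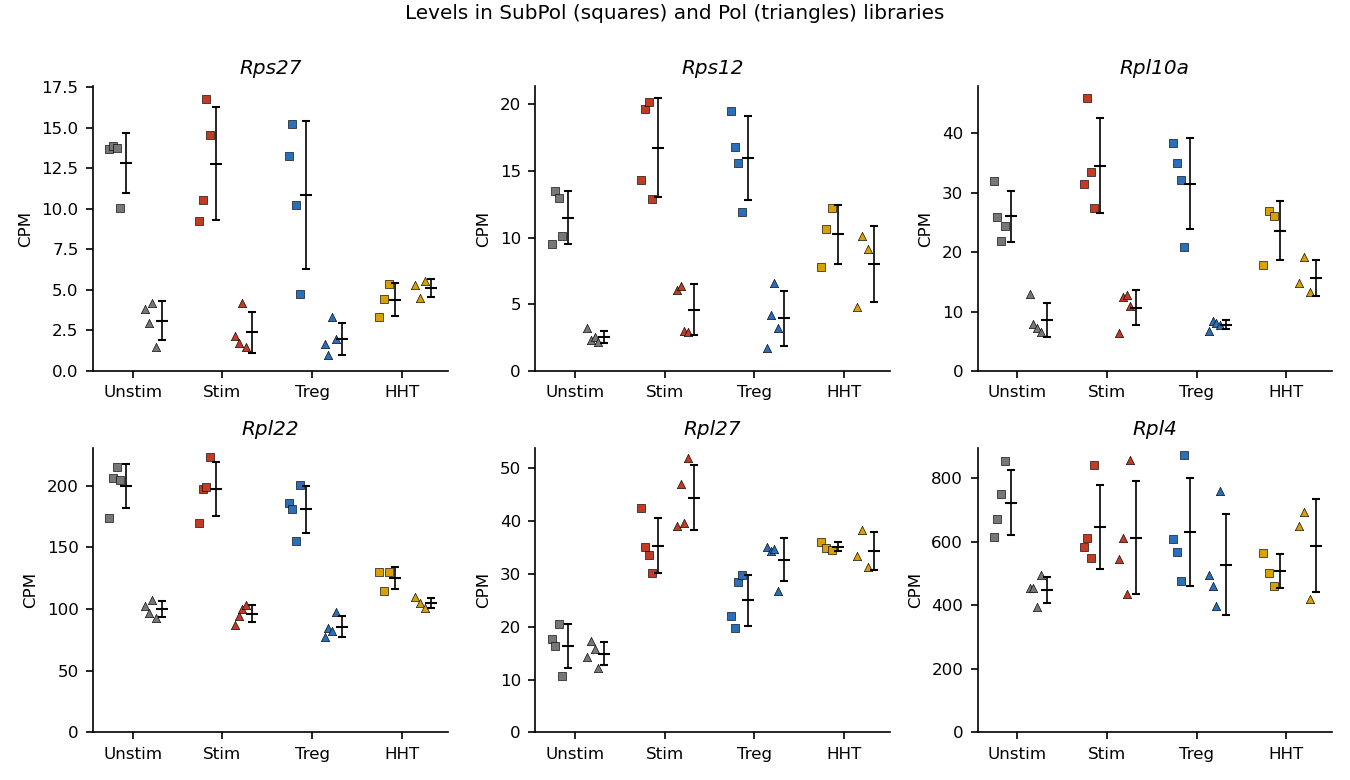
CPM of 6 members in SubPol (squares) and Pol (triangles) libraries of the 4 SPEED conditions, one point per mouse, with bars for the mean and SD (n = 4, or 3 for HHT). Rps27 had 1.46 to 4.19 CPM in Stim Pol and 9.28 to 16.8 CPM in Stim SubPol, while after HHT it had 4.50 to 5.53 and 3.35 to 5.38.

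Whole-cell levels did not pass the test for HHT. In SPEED Input, HHT minus Stim gave 0 of 60 (edgeR, 8 at unadjusted p under 0.05, DESeq2 0), against 0.105% of all genes, with a median of -0.29. Rps28 at -0.57, Rpl17 at -0.49 and Rpl32 at -0.49 were lowest, Rps12 at 0.49, Rpl24 at 0.44 and Rpl28 at 0.29 highest, and Rpl22 was at -0.23 (adjusted p = 0.643). Both HHT Input libraries were deeper than the Stim library of their mouse, by 0.74 and 0.62 on the log2 scale, and with the library total as a covariate the median was -0.11.

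Rpl22, a large-subunit protein needed for alpha-beta T cell development, thus had its largest differences between Pol and SubPol in SPEED. In RiboTag its differences between IP and Input were smaller than those between Stim and Rest. Over all libraries its level was 55.9 to 117 CPM in RiboTag, whose mice carry the tagged allele, and 77.8 to 224 CPM in SPEED, whose mice do not. Strain, assay and the fractions taken cannot be told apart in that pair of ranges, since only SPEED has SubPol and Pol libraries. How reads of the tagged exon were counted is not given in the sources used here.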

How the data were processed

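Libraries were made with SMART-Seq v4 and NexteraXT, per the labels' protocols, a method that does not mark strand, so antisense reads cannot be told apart. The authors deposited 1 table of raw counts of reads per gene for each assay. The submitters' processing notes name the build GRCm38 and the tools SAMtools 1.2, FastQC 0.11.3, HTSeq 0.4.1 and Picard 1.134. The sources used here do not name the aligner, the annotation or the handling of reads with several matches. In the table of RiboTag counts, 16 other columns could be tied to none of the samples and stayed out. Of HHT Input libraries of mouse 1 in SPEED, 2 have the same title, and the later was left out.

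The analysis used edgeR 4.0.16 in R 4.3.3. Genes were filtered with filterByExpr (minimum count 10, minimum total 15), libraries scaled by TMM, and all groups of an assay fitted in 1 robust quasi-likelihood model, with 10751 genes in RiboTag and 12428 in SPEED. The common biological coefficient of variation was 0.188 and 0.215. P-values are two-sided and were adjusted by Benjamini-Hochberg over all genes tested, with calls at 0.05. Ratios of fractions were contrasts in the same fit. Means and SDs are of CPM over libraries, and intervals are at 95%. The scripts were tested on simulated counts with known changes. TOP-like runs were searched as described with the sequences.

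In the labels, a number marks samples of 1 mouse, which pairs them across groups. Over genes, deviations from group means correlated at a mean r of 0.215 within a mouse in RiboTag (-0.0938 to 0.567) and 0.0922 in SPEED (-0.322 to 0.58), against -0.0851 and -0.0576 between mice. The fits had no block, and the block was an alternative.

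The members, lists and tests were chosen with earlier results of these data known, though no measured value was used to pick a member. Named in each comparison are Rpl22, the 3 highest and the 3 lowest members tested and any member called against the majority. Others named were chosen after their values were seen. Alternatives were DESeq2 1.42.0, other scaling, no filter, the mouse or the culture (limma 3.58.1) as a block, other denominators and leaving out libraries. The fits with the library total as a covariate were added after seeing the data. Some members that this rule names are not reported here by name, and the counts include them.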

Additional observations from a re-analysis of the deposited data

Results flagged for a closer look

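The Pol over SubPol ratio differed between 2 treatments of the same assay in 9 of 60 members, by the test of the difference itself. Over all 12428 genes tested, 2860 differed in either direction, and 10.3% were higher after HHT. All 9 had a higher ratio after HHT than in Stim, and they were Rps12, Rps19, Rps21, Rps24, Rps27, Rpl10a, Rpl18, Rpl22 and Rpl23, with log2 differences from 0.50 (Rpl23) to 2.54 (Rps27). Without 1 mouse at a time, 2 to 7 were called. With Pol over Input 0 were called, and without the filter on low counts 2. HHT Pol libraries of mice 1 and 2 were shallower than their SubPol libraries, and the part of depth in this difference was not tested. Over 58 groups of 4 or 5 library values of the members shown, 0 held a library that stood apart by Dixon's test, which chance alone would do in about 1 in 20 groups.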

How the results depend on the processing

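There were 686 alternative values, and of those for named members 0 reversed direction. Those for the comparisons were judged by counts or shares, which have no direction. Without 1 mouse at a time, the members' median changed sign in some comparisons. It ran from -0.08 to 0.02 for Treg minus Stim in RiboTag IP and from -0.11 to 0.01 for IP over Input in Treg. For Pol over SubPol in HHT it ran from -0.24 to 0.02. Of 393 alternatives for named members, 366 kept their side of the threshold and 27 lost the call. Of 293 for the comparisons, 252 stayed within 1.5 times the count reported and 41 did not, the cause of which was not tested except where fewer samples or another denominator made it. Values below are counts of members called. With DESeq2 it was 2 for IP over Input in Stim and 5 for the change of Pol over SubPol on stimulation. With the mouse as a replicate block, which changed no other call of a comparison beyond 1.5 times, these were 1 and 4, and with the culture as a random block 2 and 4, while IP over Input in Rest had 12. With the replicate block and library total together they were 2 and 8, and Pol over SubPol in HHT had 15. With the library total alone the change on stimulation had 8 and HHT had 9. Scaling by library totals gave 1 and 5 for these, and DESeq2's size factors in edgeR gave 1 for the first. Without the filter on low counts the counts were 17 for RiboTag IP on stimulation, 2 for IP over Input in Rest, 8 for SPEED Input on stimulation, and for Pol over SubPol 21 in Stim, 29 in Treg, 0 in HHT and 2 for HHT minus Stim. With Input as the denominator, Pol over Input gave 13 in Unstim, 2 in Stim, 4 in Treg, 0 in HHT and 0 for HHT minus Stim. Mice 3 to 5 alone gave 14 for RiboTag IP on stimulation, and leaving out mouse 3's untreated SubPol library, the change of Pol over SubPol on stimulation was 1. Leaving out 1 mouse at a time gave 17 to 21 for RiboTag Input and 17 to 26 for RiboTag IP on stimulation, 11 to 16 for SPEED Input on stimulation, 0 to 3 for IP over Input in Rest, and for Pol over SubPol 51 to 54 in Unstim, 23 to 37 in Stim, 34 to 44 in Treg, 0 to 2 in HHT and 2 to 7 for HHT minus Stim. The TOP-like run allowed to begin within 20 bases was present in 83.7% of members. Ratios to mitochondrial genes and a split by protein length were not run, since the identifiers could not be matched to names. Members with few counts, such as Rpl24, could show only large differences at this depth.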
